A study of Mus musculus with 9 samples.

Results

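The 10 genes described here encode components of the calcium, calcineurin and NFAT pathway of T cells. They were chosen by symbol among the 55487 genes of the expression table: the calcium sensor gene Stim1 and the channel gene Orai1, the calcineurin subunit genes Ppp3ca, Ppp3cb, Ppp3cc and Ppp3r1, the calcineurin inhibitor gene Rcan1, and the NFAT genes Nfatc1, Nfatc2 and Nfatc3. All 10 were found, and all 10 were among the 15536 genes that reached at least 1 TPM in at least 3 libraries and were tested. TPM is the relative abundance of a transcript in its library, corrected for transcript length, so that levels of different genes within a library can be set side by side.

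RNA was taken from splenic CD4+ T cells of wild-type C57BL/6 mice, which the study's methods give as female and 6 to 7 weeks old, and the cells were isolated by negative selection. One set of 3 libraries came from cells held in medium alone. A second set came from cells activated for 24 h with antibodies (Abs) to CD3, at 3 µg/ml, and to CD28, at 2 µg/ml, which engage the T cell receptor complex and a costimulatory receptor. The last 3 libraries came from TRAIL-treated activated T cells, which received both Abs and 10 µg/ml of TRAIL, a death-receptor ligand, during the same 24 h. The culture time of the medium group is not given in the sources used here. Nothing states that the libraries of a group came from separate mice or cultures, so the p-values measure only the spread between these libraries, which may be technical.

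In a T cell, engagement of the receptor activates phospholipase C, and the inositol trisphosphate it makes releases calcium from the endoplasmic reticulum. STIM proteins sense the emptying of this store and open ORAI channels in the plasma membrane, and the calcium that enters binds calmodulin and activates calcineurin, a phosphatase made of a catalytic and a regulatory subunit. Calcineurin removes phosphates from NFAT proteins, which then move to the nucleus and act on cytokine genes, and it is the target of cyclosporin and tacrolimus. All of this is control of protein activity, which RNA levels do not measure.

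Stimulation lowered the RNA of 4 of the 10 genes and raised that of 2. Ppp3ca, Nfatc3 and Stim1 fell at least 2-fold, Ppp3cb fell by less, and Orai1 and Ppp3cc rose by less than 2-fold. With TRAIL, Ppp3ca, Nfatc3 and Stim1 were at least 2-fold higher than in stimulated cells, Orai1 was also higher, and Ppp3cc and Rcan1 were lower. Against medium, TRAIL-treated activated T cells were higher in Orai1 and lower in Ppp3ca, Ppp3cb and Ppp3cc. Groups were compared with limma on log2(TPM + 1), p-values were adjusted by the Benjamini-Hochberg method over all 15536 genes, and a gene is said to have risen or fallen where the adjusted p was below 0.05.

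These counts stand against a background in which much of the transcriptome moved. In stimulated against medium cells, 28.8% of all tested genes rose and 40% fell, and 12.4% rose and 19.5% fell at least 2-fold; of the 10 genes, 2 rose and 4 fell, 0 and 3 of them at least 2-fold. In TRAIL-treated against stimulated cells, 33.5% of tested genes rose and 33.5% fell, with 16.6% and 14.3% at least 2-fold, beside 4 and 2 of the 10 genes, 3 and 0 of them at least 2-fold. In TRAIL-treated against medium cells, 8.03% rose and 24.6% fell, with 2.49% and 2.13% at least 2-fold, beside 1 and 3 of the 10 genes, of which Orai1 alone changed at least 2-fold. Libraries of the groups compared did not overlap for 6, 7 and 7 of the 10 genes in these 3 comparisons, against 72.6%, 70.4% and 50.6% of all tested genes. The 3 comparisons share libraries and are not independent of one another. Among the genes that passed, 50% were higher in TRAIL-treated than in stimulated cells and 24.6% higher than in medium, and these shares were 34.3% and 11.7% when libraries were scaled to the T cell markers; against medium the share was 44.1% after median-of-ratios scaling, 42.4% after quantile normalization and 47.7% with the length trend described below removed. The number of the 10 genes that changed at least 2-fold was also sensitive: with the length trend removed, only Ppp3ca of the 3 did so with stimulation, and without stimulated replicate 1, only Ppp3ca of the 3 did so with TRAIL against stimulated cells. Relative to the T cell markers, 4 genes changed at least 2-fold with stimulation, Orai1 (1.06) being added, and in TRAIL-treated against stimulated cells Stim1 (0.78) and Nfatc3 (0.73) were below 2-fold and Ppp3cc (-1.06) was above it. Over the 21 alternatives, the difference with stimulation ran from -1.24 to -0.91 for Stim1 and from 0.79 to 1.08 for Orai1. Whether either reached 2-fold thus depended on the setting. The median log2 difference of the 10 genes was -0.17, 0.05 and -0.22, beside -0.15, 0.01 and -0.18 over all tested genes.

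**Figure D1:**
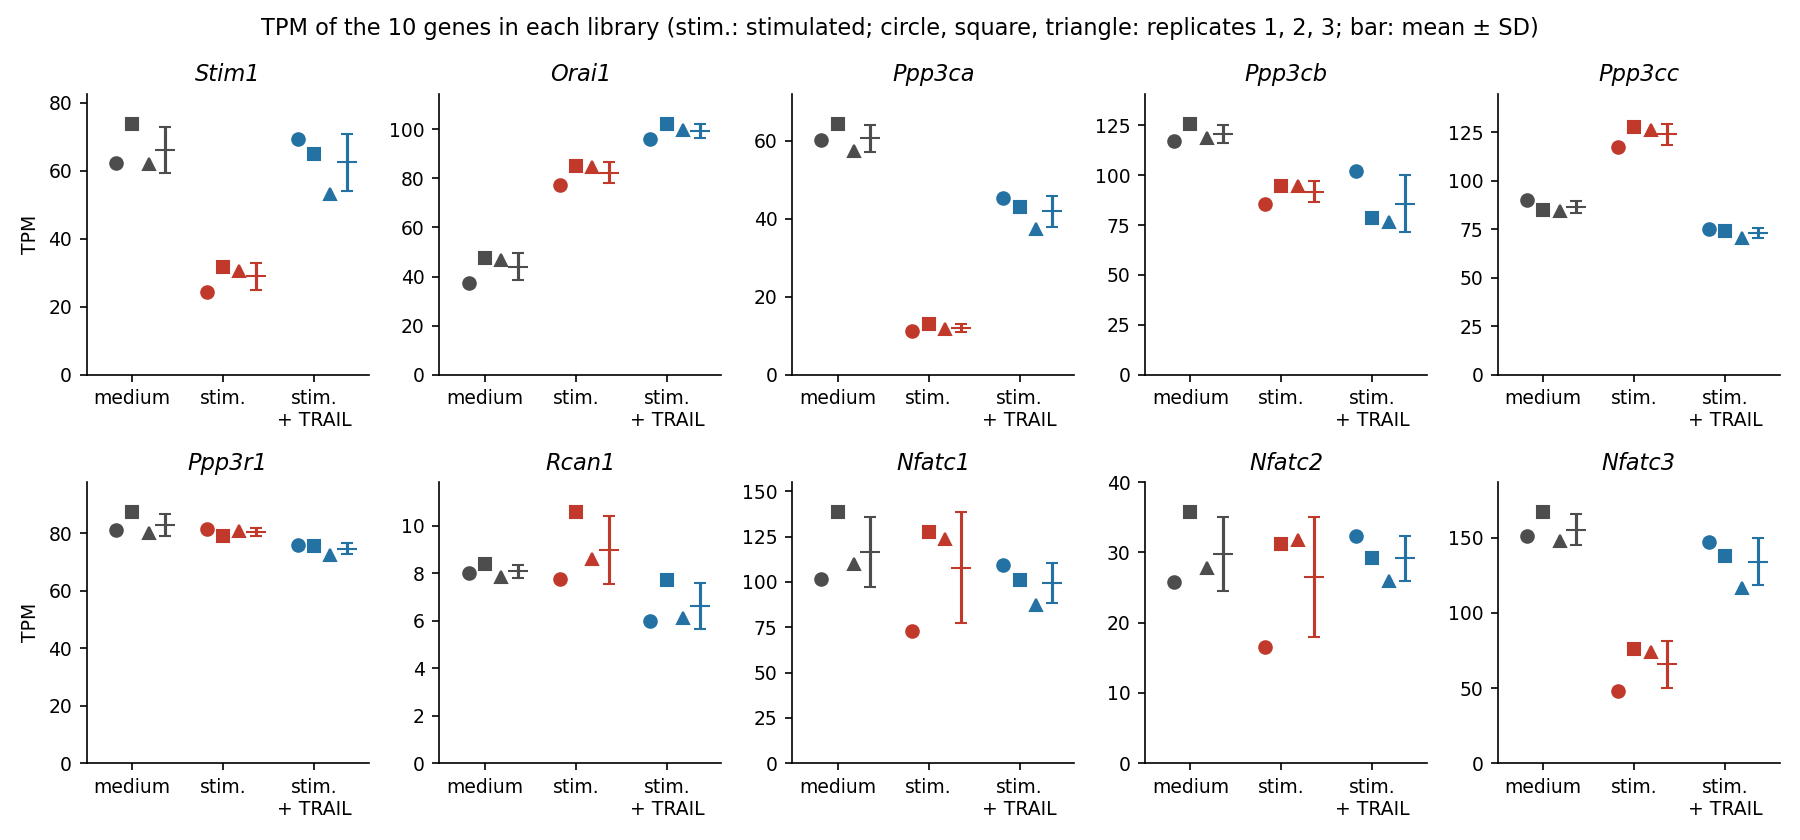
TPM of each of the 10 genes in each of the 9 libraries (vertical axis, TPM from 0; one panel per gene), with symbols for replicates 1 to 3 and a bar for the mean ± SD of a group. Ppp3ca, Nfatc3 and Stim1 are low in all 3 stimulated libraries, Orai1 is lowest in medium, Ppp3cc is highest in stimulated libraries, and stimulated replicate 1 lies below replicates 2 and 3 for Nfatc1, Nfatc2 and Nfatc3.

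Some features of the whole series bear on these values. The summed TPM of 11 T cell markers stayed between 3876 and 4659 TPM in all libraries. Although the cells were isolated as CD4+ T cells, 10 B cell markers summed to 6417 to 7097 TPM in medium, 748 to 825 TPM in stimulated and 3171 to 3668 TPM in TRAIL-treated libraries; all 10 fell with stimulation, all 10 were higher with TRAIL than without, and all 10 were lower with TRAIL than in medium. The sums of 15 myeloid markers were 2423 to 2672, 106 to 116 and 1792 to 2049 TPM, and all 15 fell with stimulation and were higher with TRAIL than without; against medium, 1 was higher and 5 were lower. For 10 erythroid and platelet markers the sums were 2171 to 2611, 30.6 to 44.3 and 627 to 678 TPM; all 10 fell with stimulation, 9 of 10 were higher with TRAIL than without and all 10 were lower with TRAIL than in medium, and Slc4a1 stood at the floor value of 0.0001 TPM in each of the 3 stimulated libraries. The sums of 7 CD8 and NK markers were 322 to 370, 173 to 184 and 132 to 143 TPM; 6 fell with stimulation, 3 rose and 3 fell with TRAIL against stimulated cells, and all 7 were lower with TRAIL than in medium. RNA of other cells therefore moved with the same groups as the genes described here, and its part in the results was not tested. In bulk RNA, fewer cells of a type and less RNA per cell cannot be told apart. Among the T cell markers, 2 rose and 4 fell with stimulation, 7 rose and 1 fell with TRAIL against stimulated cells, and 1 rose and 1 fell against medium, and of 11 housekeeping genes, 4 rose and 1 fell, 1 rose and 4 fell, and 2 rose and 1 fell.

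Stimulated replicate 1 stood apart from the other 2 stimulated libraries in a way that touches long transcripts. Its log2(TPM + 1) differed from the mean of replicates 2 and 3 by a median of 0.22 for the 1263 genes with the shortest transcripts (median of the longest transcript 498 bases) and by -0.80 for the 441 genes with the longest (median 9482 bases), and the Spearman correlation of this difference with length was -0.635 across 9578 genes, which share the same 3 libraries and are not independent. Among the 10 genes, the difference was -0.88 for Nfatc2 (6828 bases), -0.78 for Nfatc1 (4797 bases), -0.64 for Nfatc3 (5984 bases) and -0.34 for Stim1 (4362 bases). For the other 6 it lay between -0.27 for Rcan1 and 0.03 for Ppp3r1. The group comparisons also varied with length. For the 441 longest, the median log2 difference was -0.575 with stimulation and 0.41 with TRAIL against stimulated cells. It was 0.27 and -0.43 in the class of Orai1 (median length 1559 bases), and 0.15 and 0.01 for the 1263 shortest. In the class that holds Ppp3ca, Nfatc3 and Stim1 it was -0.25 and 0.08. These medians were not recomputed without stimulated replicate 1, whose omission may not remove the trend. Values without this library, or with the length trend removed from every library, are given below for the genes it moves most. The shares within families were recomputed without this library, but not with the length trend removed.

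**Figure D2:**
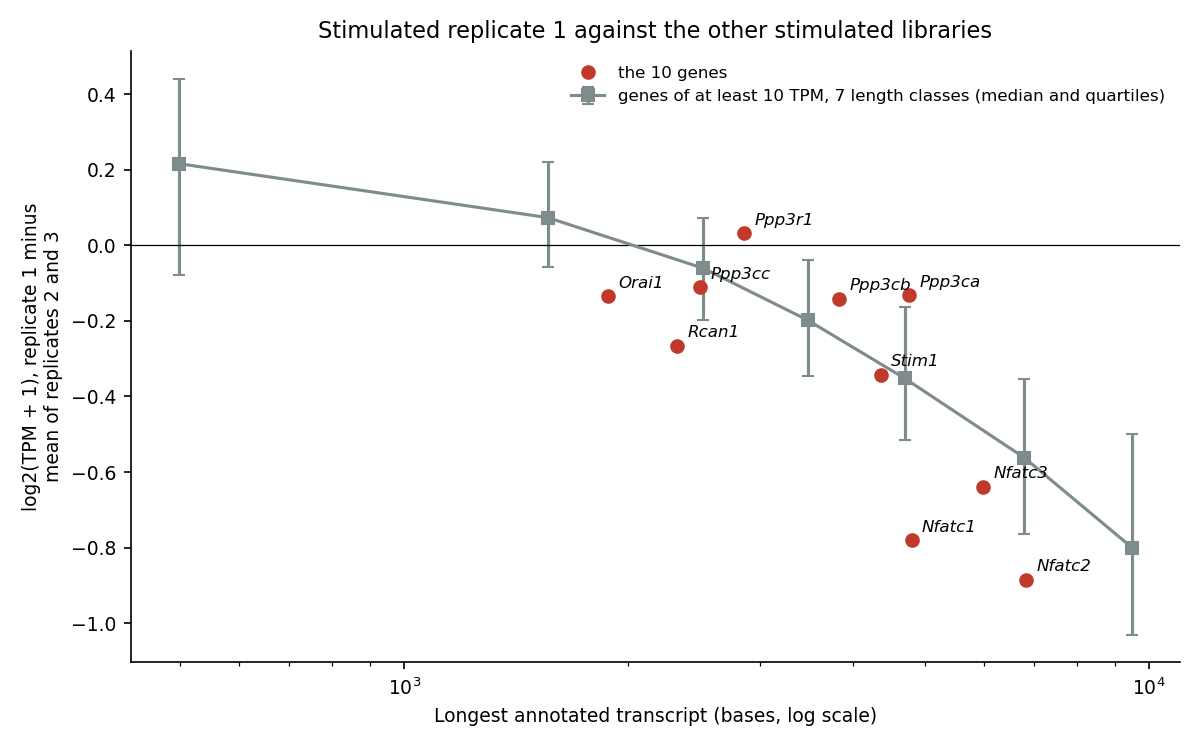
Difference of stimulated replicate 1 from the mean of stimulated replicates 2 and 3 in log2(TPM + 1) (vertical axis) against the longest annotated transcript in bases (horizontal log axis), with squares and bars for the median and quartiles of 7 length classes of genes and red points for the 10 genes. The medians run from 0.22 in the shortest class to -0.80 in the longest, and Nfatc1, Nfatc2 and Nfatc3 lie between -0.64 and -0.88.

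Stim1, the sensor of the calcium store, was measured at 62.2, 73.9 and 62.1 TPM in the 3 medium libraries, 24.4, 31.8 and 30.6 TPM in the stimulated libraries and 69.4, 64.9 and 53.3 TPM with TRAIL. The stimulated libraries were below all the others, and the medium and TRAIL-treated libraries overlapped. Stim1 fell by 1.17 on the log2 scale with stimulation (SE 0.14, limma adjusted p = 3.1e-05) and was higher by 1.09 with TRAIL than without (SE 0.14, adjusted p = 5.4e-05). Its difference between TRAIL-treated and medium cells was -0.08 (95% interval -0.39 to 0.23, adjusted p = 0.68). Without stimulated replicate 1, the first 2 log2 differences were -1.05 and 0.97, and with the length trend removed they were -0.91 and 1.04.

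Stim2, the related sensor, which responds to smaller losses of calcium, changed less. It was at 27.8 ± 2.27 TPM (SD, n = 3) in medium, 24.4 ± 3.64 TPM in stimulated and 30.8 ± 2.38 TPM in TRAIL-treated libraries. It passed the test in TRAIL-treated against stimulated cells only, with a log2 difference of 0.33 (limma adjusted p = 0.040). This did not pass without stimulated replicate 1 (0.21, adjusted p = 0.11), nor without medium replicate 1 or 3 or TRAIL-treated replicate 1 or 2 (adjusted p of 0.051 to 0.12), without the filter (0.064) or with the medium group out of the fit (0.064), and it was 0.024 relative to the T cell markers (adjusted p = 0.83). Against medium, Stim2 was higher with TRAIL by 0.31 after median-of-ratios scaling (adjusted p = 0.024), by 0.33 after quantile normalization (0.020) and by 0.34 with the length trend removed (0.0036), beside 0.14 (0.42) in the values as deposited. Stim1 accordingly took 70.4% ± 0.494 of the summed TPM of Stim1 and Stim2 in medium, 54.3% ± 0.488 in stimulated and 66.9% ± 1.35 in TRAIL-treated libraries (SD, n = 3). The 3 groups did not overlap in this share. Across the 3 groups the exact two-sided permutation test over all arrangements of the libraries gave p = 0.00357, the smallest it can give, and an adjusted p of 0.00643 over the 9 shares tested.

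Orai1, the pore subunit of the store-operated channel, was measured at 37.5, 47.6 and 46.8 TPM in medium, 77.3, 85.2 and 84.7 TPM after stimulation and 96.3, 102.1 and 99.8 TPM with TRAIL. No group overlapped another, with medium lowest and TRAIL-treated highest. The rise with stimulation was 0.90 on the log2 scale (SE 0.11, limma adjusted p = 3.2e-05). TRAIL-treated cells exceeded medium cells by 1.17 (SE 0.11, adjusted p = 4.9e-05) and stimulated cells by 0.27 (SE 0.11, adjusted p = 0.046). This last difference did not pass without stimulated replicate 1 (0.22, adjusted p = 0.098), nor when any other stimulated library, any TRAIL-treated library or medium replicate 3 was left out (adjusted p of 0.060 to 0.12), without the filter (0.057) or without the variance trend (0.061), and relative to the T cell markers it was -0.04 (adjusted p = 0.72).

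The other ORAI genes also changed. Orai2 was at 120.4, 134.1 and 123.2 TPM in medium, 13.5, 23.0 and 20.3 TPM in stimulated and 125.5, 113.1 and 93.4 TPM in TRAIL-treated libraries. It fell by 2.70 with stimulation on the log2 scale (limma adjusted p = 4.1e-07) and was 2.51 higher with TRAIL than without (adjusted p = 7.6e-07). Orai3 was at 24.5 ± 1.55 TPM in medium, 17.7 ± 0.909 TPM in stimulated and 11.02 ± 0.966 TPM in TRAIL-treated libraries (SD, n = 3), and fell in all 3 comparisons, although its fall with stimulation did not pass after quantile normalization (-0.25, adjusted p = 0.052). The sum of the 3 ORAI genes was 194 ± 13.4 TPM in medium, 119 ± 8.85 TPM in stimulated and 221 ± 15.6 TPM in TRAIL-treated libraries, lowest in the stimulated group. Orai1 made up 22.6% ± 1.65 of this sum in medium, 69.3% ± 1.67 in stimulated and 45.1% ± 3.85 in TRAIL-treated libraries, again without overlap (exact permutation p = 0.00357, adjusted p = 0.00643).

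The sequences before the starts of Orai1 and Stim1 are shown because these 2 partners in calcium entry moved in opposite directions with stimulation and because NFAT factors bind the core GGAAA. Both are the 250 bases before the RefSeq transcript start, on the strand of the gene, in GRCm38.p6, with any GGAAA or its reverse complement TTTCC in capitals. Neither holds the core, which 55.6% of 32851 RefSeq promoter windows of this length hold on either strand.
Orai1, chr5:123014824-123015073, plus strand: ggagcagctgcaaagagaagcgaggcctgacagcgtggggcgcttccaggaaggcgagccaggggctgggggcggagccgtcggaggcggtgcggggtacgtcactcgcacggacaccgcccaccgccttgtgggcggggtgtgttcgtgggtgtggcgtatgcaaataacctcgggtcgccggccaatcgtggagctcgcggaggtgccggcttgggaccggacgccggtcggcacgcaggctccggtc
Stim1, chr7:102267569-102267818, plus strand: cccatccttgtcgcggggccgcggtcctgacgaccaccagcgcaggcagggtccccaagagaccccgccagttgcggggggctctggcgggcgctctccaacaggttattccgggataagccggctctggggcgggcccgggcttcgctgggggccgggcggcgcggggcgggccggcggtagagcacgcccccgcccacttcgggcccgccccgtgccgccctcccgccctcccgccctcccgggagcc

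Ppp3ca, a catalytic subunit of calcineurin, changed most among the 10 genes in both comparisons with stimulated cells. It was measured at 60.0, 64.3 and 57.4 TPM in medium, 11.2, 12.98 and 11.8 TPM after stimulation and 45.3, 42.9 and 37.4 TPM with TRAIL. No group overlapped another, and TRAIL-treated libraries lay between the other 2 groups. The stimulated mean was 0.198 times the medium mean, and the log2 difference was -2.25 (SE 0.11, limma adjusted p = 3.3e-08). TRAIL-treated cells exceeded stimulated cells by 1.72 on the log2 scale (SE 0.11, adjusted p = 2.6e-07) and were 0.53 below medium cells, a difference that passed (log2 difference -0.53, adjusted p = 0.0048). Without stimulated replicate 1, the first 2 log2 differences were -2.20 and 1.68, and relative to the T cell markers they were -2.08 and 1.42.

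Ppp3cb, the related catalytic subunit that is prominent in lymphocytes, was measured at 117.2, 125.9 and 118.9 TPM in medium, 85.8, 94.7 and 94.8 TPM in stimulated and 102.2, 78.4 and 76.8 TPM in TRAIL-treated libraries. Medium libraries were above all others, and the stimulated and TRAIL-treated libraries overlapped. It fell by 0.39 with stimulation (SE 0.12, limma adjusted p = 0.012) and was lower by 0.50 in TRAIL-treated than in medium cells (log2 difference -0.50, SE 0.12, adjusted p = 0.0098). Between TRAIL-treated and stimulated cells the log2 difference was -0.11 (95% interval -0.37 to 0.15, adjusted p = 0.44), but relative to the T cell markers it was -0.41 and passed (adjusted p = 0.0023). The fall with stimulation did not pass with the length trend removed (-0.19, adjusted p = 0.057) or after median-of-ratios scaling (-0.21, adjusted p = 0.056).

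Ppp3cc, the remaining catalytic subunit gene, moved against Ppp3ca. It was measured at 90.0, 85.1 and 84.6 TPM in medium, 117.6, 128.0 and 126.3 TPM in stimulated and 75.1, 74.2 and 70.3 TPM in TRAIL-treated libraries, with no overlap between any groups. It rose by 0.51 with stimulation (SE 0.08, limma adjusted p = 2.7e-04) and was lower by 0.75 with TRAIL than without (log2 difference -0.75, SE 0.08, adjusted p = 1.7e-05). The log2 difference from medium to TRAIL-treated cells was -0.24 (adjusted p = 0.046), but it did not pass under 13 of the 21 alternatives, among them the removal of the length trend (-0.01, adjusted p = 0.89), median-of-ratios scaling (-0.07, adjusted p = 0.52) and the omission of any medium or TRAIL-treated library (adjusted p of 0.064 to 0.13).

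Ppp3r1, the regulatory subunit of calcineurin, was measured at 81.3, 87.4 and 80.2 TPM in medium, 81.6, 79.0 and 80.6 TPM in stimulated and 76.0, 75.5 and 72.4 TPM in TRAIL-treated libraries. TRAIL-treated libraries were below all the others, while medium and stimulated libraries overlapped. None of the log2 differences passed: -0.04 with stimulation (95% interval -0.22 to 0.13, limma adjusted p = 0.64), -0.11 with TRAIL against stimulated cells (interval -0.28 to 0.07, adjusted p = 0.26) and -0.15 against medium (adjusted p = 0.17). Relative to the T cell markers, both differences of TRAIL-treated cells passed, at -0.41 against stimulated (adjusted p = 6.7e-04) and -0.29 against medium (adjusted p = 0.0093). An annotated gene on the same strand, Wdr92, shares exon sequence with Ppp3r1 and was at 31.6, 23.7 and 28.9 TPM in medium, 26.9, 28.8 and 27.8 TPM in stimulated and 17.1, 15.0 and 15.2 TPM in TRAIL-treated libraries, so reads of the 2 genes may have been divided between them.

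The shares of the 3 catalytic subunits also differed between groups. The summed TPM of Ppp3ca, Ppp3cb and Ppp3cc was 268 ± 7.21 in medium, 228 ± 11.4 in stimulated and 201 ± 19.6 in TRAIL-treated libraries (SD, n = 3). Of this sum, Ppp3ca took 22.6% ± 0.702 in medium, 5.26% ± 0.230 in stimulated and 20.9% ± 0.938 in TRAIL-treated libraries (exact permutation p = 0.00357, adjusted p = 0.00643). Ppp3cc took 32.3% ± 1.39, 54.5% ± 0.305 and 36.6% ± 2.47 in the same order (exact permutation p = 0.00357, adjusted p = 0.00643). The share of Ppp3cb was 45.1% ± 1.04, 40.3% ± 0.378 and 42.6% ± 3.01, and did not pass (exact permutation p = 0.075, adjusted p = 0.075), but did without TRAIL-treated replicate 1 (adjusted p = 0.025). The most abundant catalytic subunit RNA was thus Ppp3cb in all medium and all TRAIL-treated libraries and Ppp3cc in all stimulated libraries. Ppp3r1 amounted to 31.0% ± 0.681, 35.4% ± 2.35 and 37.3% ± 2.76 of the catalytic sum (exact permutation p = 0.0429, adjusted p = 0.0482), which did not pass when any one library other than stimulated replicate 1 or TRAIL-treated replicate 1 was left out (adjusted p of 0.0563 to 0.0964). A share within a library is not moved by a scaling of that library, and the part that other cells had in these shares was not tested.

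**Figure D3:**
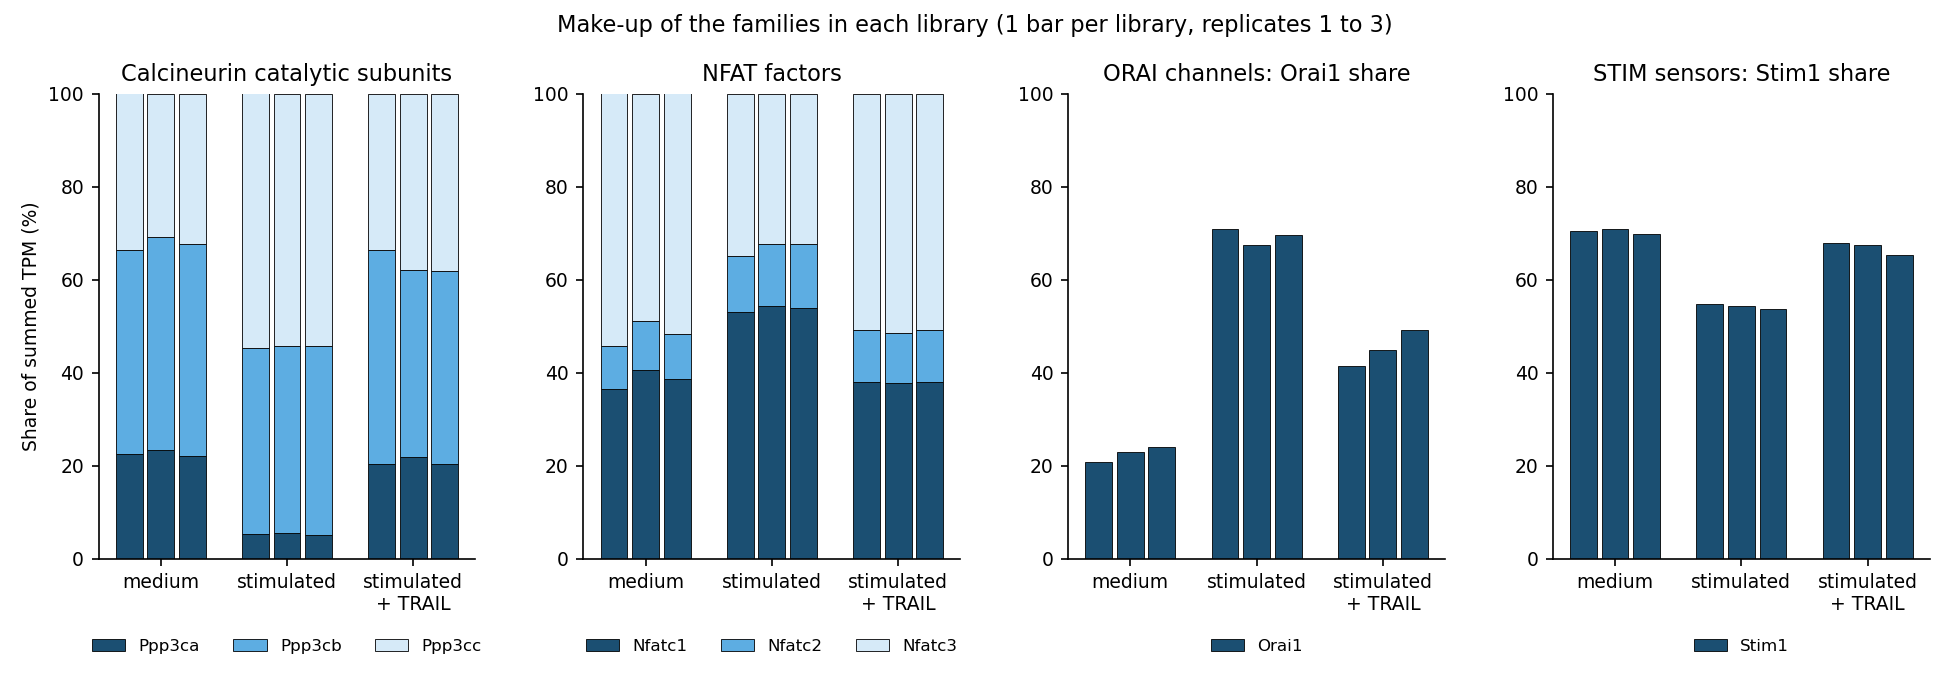
Share of summed TPM (vertical axis, percent) in each library, 1 bar per library in the order of replicates 1 to 3, for the catalytic subunits, for Nfatc1 to Nfatc3, for Orai1 within Orai1 to Orai3 and for Stim1 within Stim1 and Stim2. Ppp3ca takes 5.05 to 5.51% of the catalytic sum in stimulated libraries and at least 20.3% in every other library, and Nfatc1 exceeds Nfatc3 only in the stimulated libraries.

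Rcan1, an inhibitor of calcineurin and itself a known target gene of NFAT, was the least abundant of the 10 genes in every group. It was measured at 8.02, 8.39 and 7.85 TPM in medium, 7.78, 10.6 and 8.63 TPM in stimulated and 6.00, 7.73 and 6.14 TPM in TRAIL-treated libraries. Medium and stimulated libraries overlapped, and the TRAIL-treated libraries were below all the others. The log2 difference with stimulation was 0.13 (95% interval -0.18 to 0.43, limma adjusted p = 0.42), and 0.41 after quantile normalization, which passed (adjusted p = 0.012). TRAIL-treated cells were lower than stimulated cells by 0.39 (log2 difference -0.39, SE 0.14, adjusted p = 0.028), a call that was lost when stimulated replicate 2 (adjusted p = 0.12), stimulated replicate 3 (0.052), TRAIL-treated replicate 1 (0.091) or TRAIL-treated replicate 3 (0.079) was left out, when the medium group was not in the fit (0.058) and when the length trend was removed (0.13). Against medium the log2 difference was -0.26 (adjusted p = 0.17), and -0.40 relative to the T cell markers, which passed (adjusted p = 0.022).

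Rcan1 has 2 RefSeq transcript starts, and their upstream sequences are shown because transcription from the downstream start is the one known to respond to NFAT. Counting both strands, the downstream window holds the GGAAA core 3 times, marked in capitals, and the upstream window holds none. Of all windows, 6.39% hold it 3 times or more. The bases after the upstream start were not found in a GENCODE M21 transcript of the gene. The table gives 1 value for the whole gene, so RNA from the 2 starts could not be told apart.
Rcan1 upstream start, chr16:92466170-92466419, minus strand: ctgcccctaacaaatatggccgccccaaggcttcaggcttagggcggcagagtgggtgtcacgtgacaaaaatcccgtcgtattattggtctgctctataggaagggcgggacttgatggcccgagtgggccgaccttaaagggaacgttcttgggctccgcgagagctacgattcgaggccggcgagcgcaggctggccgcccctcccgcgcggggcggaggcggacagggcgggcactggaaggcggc
Rcan1 downstream start, chr16:92400079-92400328, minus strand: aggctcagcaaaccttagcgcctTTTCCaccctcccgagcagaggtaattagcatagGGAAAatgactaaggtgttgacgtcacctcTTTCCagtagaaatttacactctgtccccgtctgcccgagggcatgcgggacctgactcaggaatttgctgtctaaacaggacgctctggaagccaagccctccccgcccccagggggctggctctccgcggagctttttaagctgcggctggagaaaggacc

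Of the 10 genes, 7 had RefSeq promoter windows, 10 in all. The other windows held the core 3 and 1 times for Nfatc2, 3 times for Ppp3cb, 1 and 0 times for Nfatc3, and 0 times for Ppp3r1. For both Nfatc3 windows, the bases after the start were not found in a GENCODE M21 transcript of the gene. Ppp3ca, Ppp3cc and Nfatc1 had none in the table used. The window of Ppp3cb is shown because it holds the core 3 times, in capitals, beside 0 times in that of Ppp3r1, the other calcineurin subunit gene with a window.
Ppp3cb, chr14:20546574-20546823, minus strand: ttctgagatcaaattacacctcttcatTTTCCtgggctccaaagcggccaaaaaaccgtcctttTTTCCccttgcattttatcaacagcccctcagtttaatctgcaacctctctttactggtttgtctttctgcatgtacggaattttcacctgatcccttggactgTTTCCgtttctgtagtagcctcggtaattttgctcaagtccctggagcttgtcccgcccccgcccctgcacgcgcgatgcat

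Nfatc3, the NFAT gene with the highest TPM in medium, was measured at 151.5, 167.1 and 147.7 TPM in medium, 47.8, 75.8 and 74.0 TPM in stimulated and 147.2, 138.2 and 116.9 TPM in TRAIL-treated libraries. The stimulated libraries were below all the others, and every TRAIL-treated library was below every medium library. Nfatc3 fell by 1.25 with stimulation (SE 0.17, limma adjusted p = 8.4e-05) and was higher by 1.04 with TRAIL than without (SE 0.17, adjusted p = 3.3e-04). The log2 difference between TRAIL-treated and medium cells was -0.22 (95% interval -0.59 to 0.16, adjusted p = 0.35), and -0.36 relative to the T cell markers, which passed (adjusted p = 0.047). Without stimulated replicate 1, the first 2 log2 differences were -1.04 and 0.82, and with the length trend removed they were -0.91 and 0.87, and both passed each time.

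Nfatc1, known for an inducible short isoform that activated lymphocytes make, was measured at 101.6, 138.4 and 110.1 TPM in medium, 72.7, 127.6 and 123.6 TPM in stimulated and 109.6, 101.3 and 87.3 TPM in TRAIL-treated libraries. All 3 groups overlapped. The log2 difference with stimulation was -0.14 (95% interval -0.61 to 0.32, limma adjusted p = 0.56), 0.12 (adjusted p = 0.48) without stimulated replicate 1 and 0.15 (adjusted p = 0.32) with the length trend removed. With TRAIL it was -0.08 against stimulated cells (interval -0.54 to 0.38, adjusted p = 0.75), and -0.34 (adjusted p = 0.054) without that library. Against medium it was -0.22 (interval -0.69 to 0.24, adjusted p = 0.44). Isoforms of the gene are not separated in the table.

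Nfatc2, the NFAT gene prominent in resting T cells, was the least abundant of the 3. It was measured at 25.9, 35.7 and 27.8 TPM in medium, 16.6, 31.2 and 31.7 TPM in stimulated and 32.4, 29.2 and 25.9 TPM in TRAIL-treated libraries, again with all groups overlapping. Its log2 differences were -0.20 with stimulation (95% interval -0.71 to 0.31, limma adjusted p = 0.45), 0.18 with TRAIL against stimulated cells (interval -0.33 to 0.69, adjusted p = 0.50) and -0.02 against medium (adjusted p = 0.95). The first 2 changed sign without stimulated replicate 1, to 0.09 and -0.11, and with the length trend removed, to 0.18 and -0.04.

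Within the NFAT family, Nfatc3 took 51.7% ± 2.67 of the summed TPM of Nfatc1 to Nfatc3 in medium, 33.2% ± 1.47 in stimulated and 51.1% ± 0.343 in TRAIL-treated libraries (SD, n = 3; exact permutation p = 0.025, adjusted p = 0.0321). Nfatc1 took 38.5% ± 2.06, 53.8% ± 0.672 and 37.9% ± 0.126 (exact permutation p = 0.025, adjusted p = 0.0321), and Nfatc2 took 9.82% ± 0.609, 13.1% ± 0.890 and 11.1% ± 0.217 (exact permutation p = 0.00357, adjusted p = 0.00643). Nfatc3 was ahead of Nfatc1 in all medium and TRAIL-treated libraries, and Nfatc1 was ahead in all stimulated libraries, replicate 1 included. The shares of stimulated replicate 1, at 53.1% for Nfatc1, 12.1% for Nfatc2 and 34.9% for Nfatc3, were within 3 percentage points of those of replicates 2 and 3, while its NFAT sum of 137 TPM stood beside 235 and 229 TPM.

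**Figure D4:**
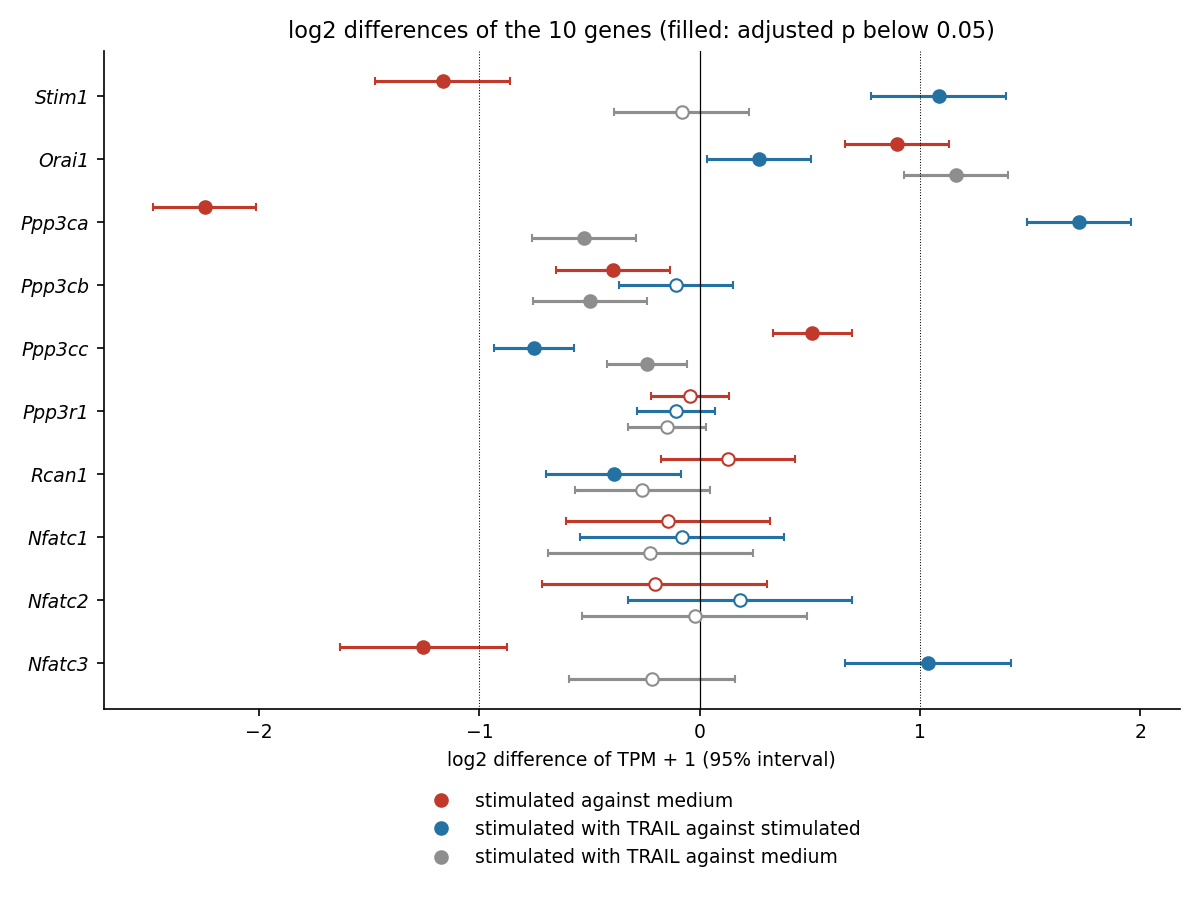
Log2 differences of TPM + 1 (horizontal axis) with 95% intervals for the 10 genes in the 3 comparisons, filled where the adjusted p was below 0.05; dotted lines mark a 2-fold difference. Ppp3ca, Stim1 and Nfatc3 lie beyond -1 with stimulation and beyond 1 with TRAIL against stimulated cells, Orai1 lies above 0 in all 3 comparisons, and Ppp3cc is reversed in sign against Ppp3ca in both comparisons with stimulated cells.

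The order of the 10 levels differed between groups. In medium, from the highest mean TPM, it was Nfatc3, Ppp3cb, Nfatc1, Ppp3cc, Ppp3r1, Stim1, Ppp3ca, Orai1, Nfatc2 and Rcan1; among neighbours in this order, libraries overlapped between Ppp3cb and Nfatc1, between Ppp3cc and Ppp3r1, and between Stim1 and Ppp3ca. In stimulated cells it was Ppp3cc, Nfatc1, Ppp3cb, Orai1, Ppp3r1, Nfatc3, Stim1, Nfatc2, Ppp3ca and Rcan1, with overlap between the neighbours Ppp3cc and Nfatc1, Nfatc1 and Ppp3cb, Orai1 and Ppp3r1, and Stim1 and Nfatc2, and the wide range of Nfatc1 also overlapped Orai1, Ppp3r1 and Nfatc3. In TRAIL-treated cells it was Nfatc3, Nfatc1, Orai1, Ppp3cb, Ppp3r1, Ppp3cc, Stim1, Ppp3ca, Nfatc2 and Rcan1, with overlap between the neighbours Nfatc1 and Orai1, Orai1 and Ppp3cb, and Ppp3r1 and Ppp3cc, and also between Nfatc1 and Ppp3cb.

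For the 4 genes that changed at least 2-fold in a comparison, the genes of at least 10 TPM whose pattern over the 9 libraries was nearest were found by the root mean square difference of centred log2(TPM + 1), among 9587 genes. Ppp3ca lay nearest to Ccl5 (0.07), which encodes a chemokine, Slc25a45 (0.08) and Acp5 (0.09), which encodes an acid phosphatase of macrophages and osteoclasts. Stim1 lay nearest to Rhobtb2 (0.05) and to the diacylglycerol kinase genes Dgkz (0.06) and Dgkd (0.06). Nfatc3 lay nearest to Uvssa, Gripap1 and Supt20 (0.06 each). Orai1 lay nearest to Rilpl2 (0.11), the lymph node homing receptor gene Ccr7 (0.14) and the cytokine gene Tnf (0.16), at larger distances than the other 3.

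Other genes of the pathway were taken in lists by role, which were chosen with earlier results of these data known. Their counts are to be read beside all tested genes, of which 28.8% rose and 40% fell with stimulation, 33.5% rose and 33.5% fell with TRAIL against stimulated cells, and 8.03% rose and 24.6% fell against medium, with medians of -0.15, 0.01 and -0.18. Of 14 further genes of store release and calcium entry, 11 fell and 1 rose with stimulation, 11 rose and 2 fell with TRAIL against stimulated cells, and 1 rose and 1 fell against medium; the medians were -1.07, 0.96 and -0.02. Orai2 had both the largest fall and the largest rise, and Orai3 the largest fall against medium (-1.09, limma adjusted p = 6.9e-05). Saraf, which damps store-operated entry and was named after its values were seen, was the one gene higher against medium, at 277 ± 12.5 TPM in medium, 103 ± 4.15 TPM in stimulated and 458 ± 24.9 TPM in TRAIL-treated libraries (SD, n = 3). Without stimulated replicate 1, the medians of the first 2 comparisons were -0.73 and 0.62, with 10 genes falling and 9 rising, and with the length trend removed they were -0.72 and 0.85, with 10 falling and 11 rising.

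Among 10 genes of calcium pumps and mitochondrial uptake, 4 rose and 5 fell with stimulation and 3 rose and 5 fell with TRAIL against stimulated cells. Against medium 2 fell, and the medians were -0.07, -0.17 and -0.26. Over all genes, 28.8% rose and 40% fell, 33.5% rose and 33.5% fell, and 8.03% rose and 24.6% fell, in the same order. Atp2b4, a plasma membrane calcium pump, rose by 1.47 with stimulation (limma adjusted p = 3.2e-04) and was lower with TRAIL (log2 difference -2.09, adjusted p = 2.6e-05). Atp2a3, a pump that refills the store, fell by 1.71 with stimulation (adjusted p = 1.0e-05), and Slc8b1, the mitochondrial exchanger, was 1.40 higher with TRAIL than without (adjusted p = 9.3e-06). Of 10 genes of calmodulin and its kinases, 2 rose and 6 fell, then 5 rose and 2 fell, and 1 fell against medium, with medians of -0.38, 0.31 and -0.18, and among those that reached a mean of 10 TPM in a group, Camk1d led in the first 2 comparisons (-1.42 and 1.18; adjusted p = 2.4e-04 and 8.6e-04).

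Of 8 tested genes of calcineurin inhibitors and partners, 5 rose and 0 fell with stimulation, 0 rose and 6 fell with TRAIL against stimulated cells and 1 fell against medium, with medians of 0.96, -0.97 and -0.19 beside -0.15, 0.01 and -0.18 over all genes. Akap1, an anchoring protein of mitochondria, led both with log2 differences of 2.48 and -2.74 (limma adjusted p = 1.6e-07 and 8.8e-08). The list includes the genes of the immunophilins through which the calcineurin drugs act, named after their values were seen: Fkbp1a, the partner of tacrolimus, was at 104 ± 17.5 TPM in medium, 429.8 ± 33.2 TPM in stimulated and 87.6 ± 11.3 TPM in TRAIL-treated libraries, and Ppia, the partner of cyclosporin, was at 1020, 370 and 771 TPM, 1693, 1524 and 1443 TPM, and 882, 569 and 1126 TPM. Rcan3, the relative of Rcan1, was at 21.4 ± 2.44, 18.4 ± 2.77 and 14.9 ± 2.01 TPM and fell against medium (log2 difference -0.50, adjusted p = 0.027), a call lost when medium replicate 2 or 3 or TRAIL-treated replicate 3 was left out (adjusted p of 0.060 to 0.10), after quantile normalization (0.056) and without the filter (0.058). Between TRAIL-treated and stimulated cells the log2 difference of Rcan3 was -0.28 (adjusted p = 0.11), and it passed under 5 alternatives, from -0.30 after median-of-ratios scaling (0.025) to -0.59 relative to the T cell markers (6.7e-04). The fall of Ppia with TRAIL against stimulated cells (-0.91, adjusted p = 0.038) did not pass after median-of-ratios scaling (0.052), after quantile normalization (0.054), without the filter (0.11), with the length trend removed (0.081) or without any one stimulated library or TRAIL-treated replicate 1 or 2 (0.059 to 0.15). Fkbp1a against medium was -0.23 (adjusted p = 0.23), and passed relative to the T cell markers (-0.38, adjusted p = 0.029). FKBP1A and PPIA are also general folding enzymes.

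Of 15 other NFAT factors, NFAT export kinases and scaffolds, 3 rose and 6 fell with stimulation, 6 rose and 3 fell with TRAIL against stimulated cells, and 1 rose and 5 fell against medium, with medians of 0.05, -0.08 and -0.24. With stimulation, the 6 of 15 that fell are the same share as the 40% of all genes. Lrrk2, a kinase of a noncoding RNA and protein complex that holds NFAT in the cytoplasm, fell by 3.03 with stimulation (limma adjusted p = 3.1e-07) and was 2.12 higher with TRAIL than without (adjusted p = 4.8e-06). Kpnb1, an importin, rose by 1.05 with stimulation and was lower with TRAIL (log2 difference -1.43; adjusted p = 9.9e-05 and 1.0e-05). Without stimulated replicate 1, 5 rose and 5 fell with stimulation, and with the length trend removed, 8 rose and 5 fell with stimulation, while 6 rose and 2 fell against medium. Nfatc4 was below the filter on low values.

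Of 28 known NFAT target genes, 23 rose and 2 fell with stimulation, 8 rose and 15 fell with TRAIL against stimulated cells and 18 rose and 0 fell against medium. The median log2 differences were 2.38, -0.96 and 0.99, beside -0.15, 0.01 and -0.18 over all tested genes. Of the 28, however, 5 (Il2, Il3, Il5, Il13 and Csf2) were below 1 TPM in every medium and TRAIL-treated library and passed the filter on low values only through the stimulated group, so their direction in both comparisons with that group was set by the filter. Without them, 18 of 23 rose and 2 fell with stimulation, 8 rose and 10 fell with TRAIL against stimulated cells and 17 rose and 0 fell against medium, with medians of 1.90, -0.21 and 1.32. Il2, the classical NFAT target, was at 0.265, 0.116 and 0.452 TPM in medium, 23.3, 13.3 and 9.27 TPM in stimulated and 0.420, 0.345 and 0.718 TPM in TRAIL-treated libraries, with the stimulated libraries above all the others. Il21 had the largest rise with stimulation (7.13, limma adjusted p = 3.0e-10) and the largest fall with TRAIL (-7.43, adjusted p = 3.5e-10). The list did not move as one: Tox fell with stimulation (-2.39, adjusted p = 2.6e-07), the orphan receptor gene Nr4a1 was 3.16 higher with TRAIL than without (adjusted p = 4.5e-09), and its relative Nr4a3 was 4.67 higher in TRAIL-treated than in medium cells (adjusted p = 8.8e-08).

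**Figure D5:**
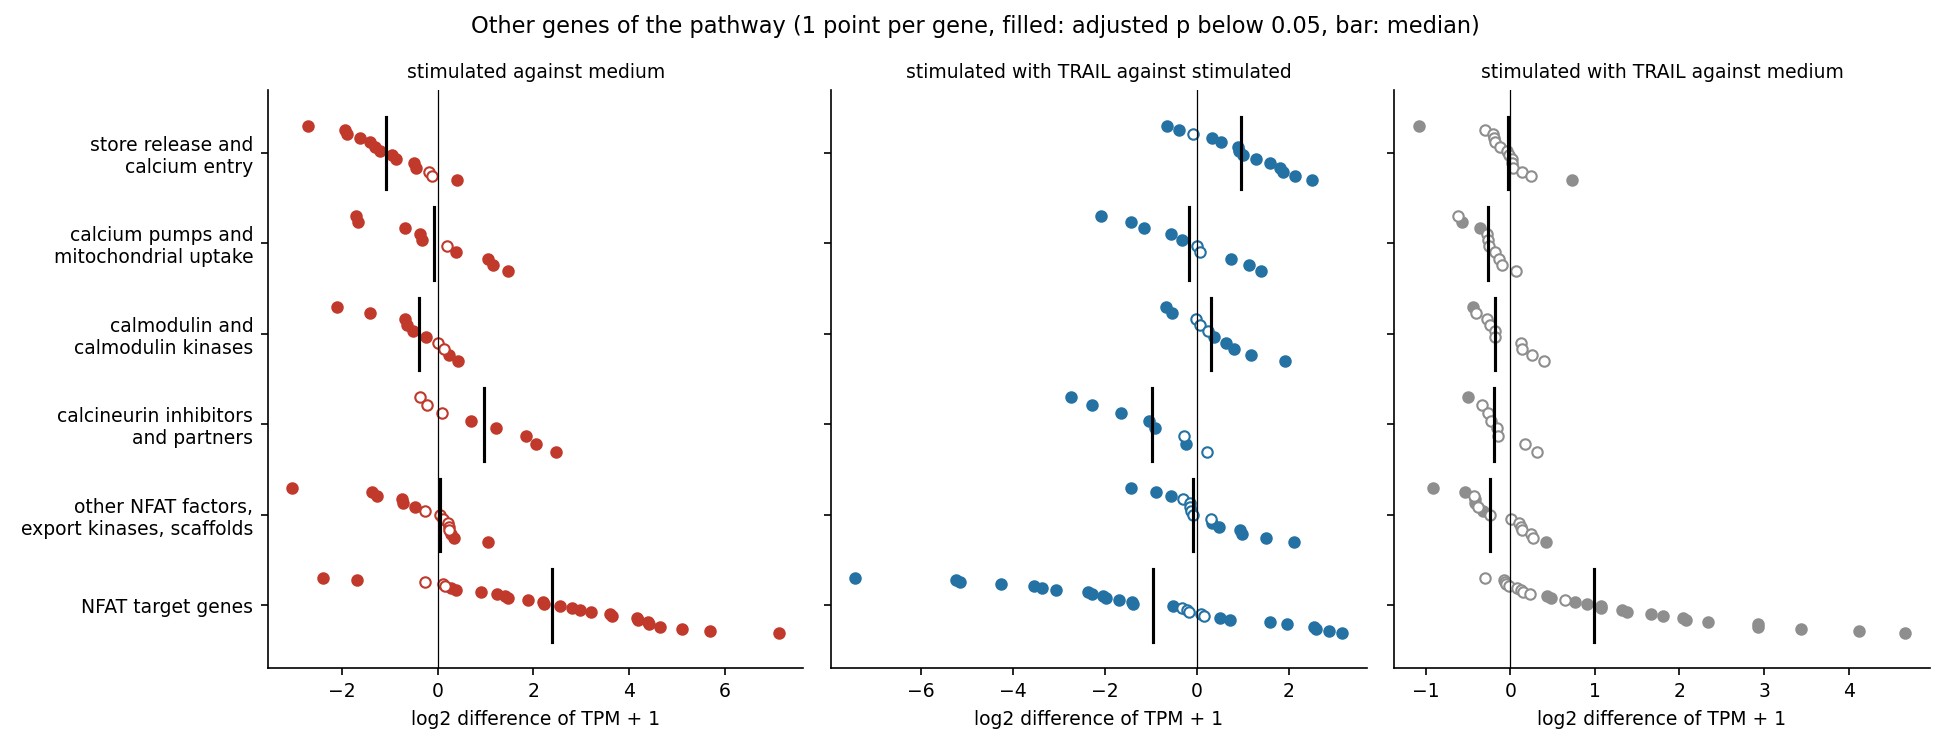
Log2 differences of TPM + 1 (horizontal axes, scaled separately) for the other genes of the pathway in 6 lists, 1 point per gene, filled where the adjusted p was below 0.05, with a bar at the median, in the 3 comparisons. The medians of store release and calcium entry are at -1.07 and 0.96 in the first 2 comparisons, those of calcineurin inhibitors and partners at 0.96 and -0.97, and those of the NFAT targets at 2.38, -0.96 and 0.99, or 1.90, -0.21 and 1.32 without the 5 that passed the filter only through the stimulated group. The calcineurin inhibitors Rcan3, Cabin1 and Chp1 were not among the genes that rose with stimulation.

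Positions are those of the table, in GRCm38, and all 10 loci are identical to GENCODE M21. Stim1 is on chromosome 7 (102267806 to 102437319, plus strand) and Orai1 on chromosome 5 (123015074 to 123030456, plus strand). Ppp3ca is on chromosome 3 (136670124 to 136937727, plus strand), Ppp3cb and Ppp3cc on chromosome 14 (20499364 to 20546573 and 70217865 to 70289471, both minus strand) and Ppp3r1 on chromosome 11 (17159263 to 17200375, plus strand). Rcan1 is on chromosome 16 (92391953 to 92470867, minus strand), Nfatc2 on chromosome 2 (168476410 to 168601657, minus strand) and Nfatc3 on chromosome 8 (106058840 to 106130537, plus strand), and Nfatc1 is on chromosome 18. Exons of an annotated gene on the opposite strand overlap Nfatc3 (Esrp2), Ppp3cc (Gm49417) and Orai1 (Gm2479), and these 3 genes were at 1.18 TPM or less in every library. Nfatc1, Nfatc2, Ppp3ca, Ppp3cb, Rcan1 and Stim1 share no exon sequence with another annotated gene.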

How the data were processed

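RNA-seq was measured in 9 libraries of splenic CD4+ T cells, 3 per group, grouped by their labels. The submitters' notes list Trimmomatic 0.36, HISAT2 2.1.0, SAMtools 1.2, StringTie 2.1.2 and DESeq2. The authors deposited TPM for 55487 genes, at loci of GRCm38. The program that wrote the TPM, the annotation release and the strandedness of counting are not given in the sources used here. TPM holds no read totals, so depth and counting error are unknown, and a rise of some transcripts lowers the share of others.

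Genes reaching 1 TPM in 3 or more libraries (15536) were compared in limma 3.58.1 under R 4.3.3 (lmFit, then eBayes with trend) on log2(TPM + 1), using the 9 libraries together and Benjamini-Hochberg adjustment across all these genes. A fold change on this scale understates the change of genes of low TPM. The scripts were tested on simulated data. Shares within families were compared across the 3 groups by an exact two-sided permutation test, adjusted over 9 shares. Sequences are from RefSeq. Python 3.11.15, pandas 2.3.3 and matplotlib 3.10.9 were used.

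The 10 genes and the gene lists were chosen with earlier results of these data known. Besides the 10 genes, Orai2, Orai3, Stim2 and the 3 nearest patterns of each gene that changed at least 2-fold, the rule named from each list the largest rise and the largest fall among genes with an adjusted p below 0.05, a 2-fold difference and a mean of 10 TPM in a group; marker and housekeeping lists are given by counts. Other settings changed the pseudocount, low-value filter, scaling, variance trend, groups in the fit and replicate block, or left out 1 library. Removal of the length trend, by a smooth curve on the longest transcript in each library, was chosen after seeing the data, as were the list counts without stimulated replicate 1 and without genes that passed the filter through 1 group only.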

Additional observations from a re-analysis of the deposited data

How the results depend on the processing

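The 30 log2 differences of the 10 genes were recomputed under 21 alternatives, giving 630 values: 562 kept their direction and side of the threshold, 30 no longer passed, 6 newly passed and 32 changed sign. Of the 6, Rcan1 with stimulation passed after quantile normalization, and the others passed relative to T cell markers: Ppp3cb and Ppp3r1 in TRAIL-treated against stimulated cells, and Nfatc3, Ppp3r1 and Rcan1 against medium. Among these and the 5 sign changes in other named genes, apart from Orai1 in TRAIL-treated against stimulated cells (-0.039 relative to T cell markers), the sign changes were in differences that had not passed. Relative to T cell markers these were Nfatc1 with stimulation (0.021), Nfatc2 in TRAIL-treated against stimulated cells (-0.13), Ppp3r1 with stimulation (0.12) and Stim2 in TRAIL-treated against medium cells (-0.00069). After median-of-ratios scaling they were Nfatc1 (0.043) and Ppp3r1 (0.14) with stimulation, and Nfatc2 (0.14), Ppp3r1 (0.019) and Stim1 (0.087) in TRAIL-treated against medium cells. After quantile normalization they were Nfatc1 (0.10), Ppp3cb (0.071) and Ppp3r1 (0.060) in TRAIL-treated against stimulated cells, and Nfatc2 (0.16) and Stim1 (0.060) against medium. With the length trend removed they were Nfatc1 (0.15), Nfatc2 (0.18), Ppp3r1 (0.065), Stim2 (0.11) and Rcan3 (0.10) with stimulation, Nfatc2 (-0.037) and Ppp3r1 (0.014) in TRAIL-treated against stimulated cells, and Nfatc2 (0.14), Ppp3r1 (0.079), Stim1 (0.13) and Orai2 (0.021) against medium. With 1 library left out, values ran from -0.28 to 0.12 for Nfatc1 and -0.36 to 0.09 for Nfatc2 with stimulation, from -0.34 to 0.061 for Nfatc1 and -0.11 to 0.34 for Nfatc2 in TRAIL-treated against stimulated cells, and from -0.11 to 0.11 for Nfatc2 and -0.16 to 0.028 for Stim1 against medium; Ppia against medium ran from -0.10, without medium replicate 2, to 0.63. The cause was not tested.

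The count of the 10 genes at least 2-fold changed was 1 rather than 3 with stimulation once the length trend was removed, and 1 rather than 3 in TRAIL-treated against stimulated cells with a pseudocount of 5; leaving out 1 library gave 1 to 3, the lowest without stimulated replicate 1. In TRAIL-treated against medium cells, 7 rather than 4 passed relative to T cell markers. Over all genes, a pseudocount of 5 gave 2946, 2883 and 332 genes at least 2-fold changed in the 3 comparisons, and one of 0.1 gave 1167 against medium. There 8050 genes passed relative to T cell markers, and 3348 to 6220 with 1 library left out, the lowest without TRAIL-treated replicate 3 and the highest without stimulated replicate 1. The median of all genes was -0.15, 0.01 and -0.18 in the 3 comparisons, 0.02, -0.0049 and -0.03 after median-of-ratios scaling and 0.01, -0.30 and -0.33 relative to T cell markers.

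The replicate numbers are not stated to pair the samples, and were not taken to do so. Same-numbered libraries correlated in their deviations at -0.31 to 0.30, and not every library correlated best with its own number. Differently numbered libraries covered much the same range, -0.38 to 0.29, so these correlations cannot decide the pairing. With the replicate number as a block, 6, 6 and 3 of the 10 genes and 10494, 10299 and 4538 of all genes passed; Ppp3cc in TRAIL-treated against medium cells (adjusted p = 0.090, limma) was the one call lost among the 10, and Stim2 in TRAIL-treated against stimulated cells (0.051) was lost among the other genes named. Depth is unknown for TPM, and 3 libraries per group limit the precision.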
